A study of Mus musculus with 5 samples.

Results

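The genes described here are those named for proteins of the mitochondrial ribosome. They are all protein-coding mouse genes whose symbol is Mrpl (large subunit) or Mrps (small subunit) followed by a digit. Membership rests on the symbol alone, and it was not checked for every gene that its protein is part of the ribosome. The rule gave 78 genes, 49 Mrpl and 29 Mrps, of 21801 protein-coding genes listed in the files, and 77 of them (49 Mrpl and 28 Mrps) passed the filter on low values. RNA abundance was measured by sequencing in 5 libraries of bone marrow-derived macrophages from wild-type C57BL/6 mice. Marrow cells had been differentiated for 6 days with recombinant CSF1 or with conditioned medium of L929 cells, and the labels do not say which library had which. The comparison asks how CBR-5884, which inhibits PHGDH, the first enzyme of serine synthesis from glucose, changes the RNA of macrophages that respond to interleukin 4 (IL-4). Before IL-4 the cells received 30 µM CBR-5884 (3 libraries, replicates 3, 4 and 5) or solvent (2 libraries, replicates 3 and 5). IL-4 was then added to both groups at 10 ng/ml for 24 h, so no library here shows the genes without IL-4. The labels do not say whether libraries came from separate mice or cultures, so p-values reflect only how these libraries vary, which may be technical variation.

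Mitochondria keep a ribosome of their own, descended from that of bacteria, which translates the few proteins encoded in mitochondrial DNA, all of them subunits of the respiratory chain and ATP synthase. Its ribosomal RNAs are transcribed in the organelle, whereas all of its proteins are encoded in the nucleus, made in the cytosol and imported. Some of these proteins have counterparts in the bacterial ribosome, and others were added in the mitochondrial lineage. In macrophages, IL-4 is known to favour oxidative metabolism, which depends on the products of this ribosome.

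Mitoribosomal protein mRNAs differed little between the groups, and none passed the test. Of the 77 tested members, 0 were called at a limma adjusted p below 0.05, against 0.223% of all 10770 genes tested (0.176% lower and 0.0464% higher). The smallest adjusted p of a member was 0.132. Most values lay slightly lower with CBR-5884: 37 of 49 Mrpl genes and 22 of 28 Mrps genes had a log2 fold change below 0, as did 55.7% of all genes tested. The median log2 fold change was -0.12 for the Mrpl genes, -0.06 for the Mrps genes and -0.03 for all genes tested. Log2 fold changes are of log2(FPKM + 1), CBR-5884 over solvent, where FPKM is the number of fragments from a transcript relative to its length and to the depth of its library. A value between -0.25 and 0.25, a small change, was found for 68 of 77 members and for 74.0% of all genes tested.

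At an unadjusted limma p below 0.05, a description and not a call, 6 Mrpl and 6 Mrps genes were lower with CBR-5884 and 0 were higher. These 12 are 15.6% of the tested members, beside 12.4% of all genes tested that were lower and 7.24% that were higher by the same measure. All 3 CBR-5884 libraries lay below both solvent libraries for 23 members (29.9%, against 24.9% of all genes tested) and above them for 6 (7.79%, against 16.6%). Rescaling the libraries to the same summed FPKM left 4 members lower and 2 higher at that unadjusted p. The balance of all genes moved in the same way, from 1334 lower and 780 higher to 949 lower and 1135 higher. The difference between the Mrpl median and the median of all genes was -0.09 as deposited and -0.08 after this rescaling, and for the Mrps genes it was -0.03 in both cases. For the Mrpl genes it was -0.04 with reference transcripts only and -0.03 without solvent replicate 3, where 28 of 49 lay below the median of all genes, against 35 as deposited.

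**Figure D1:**
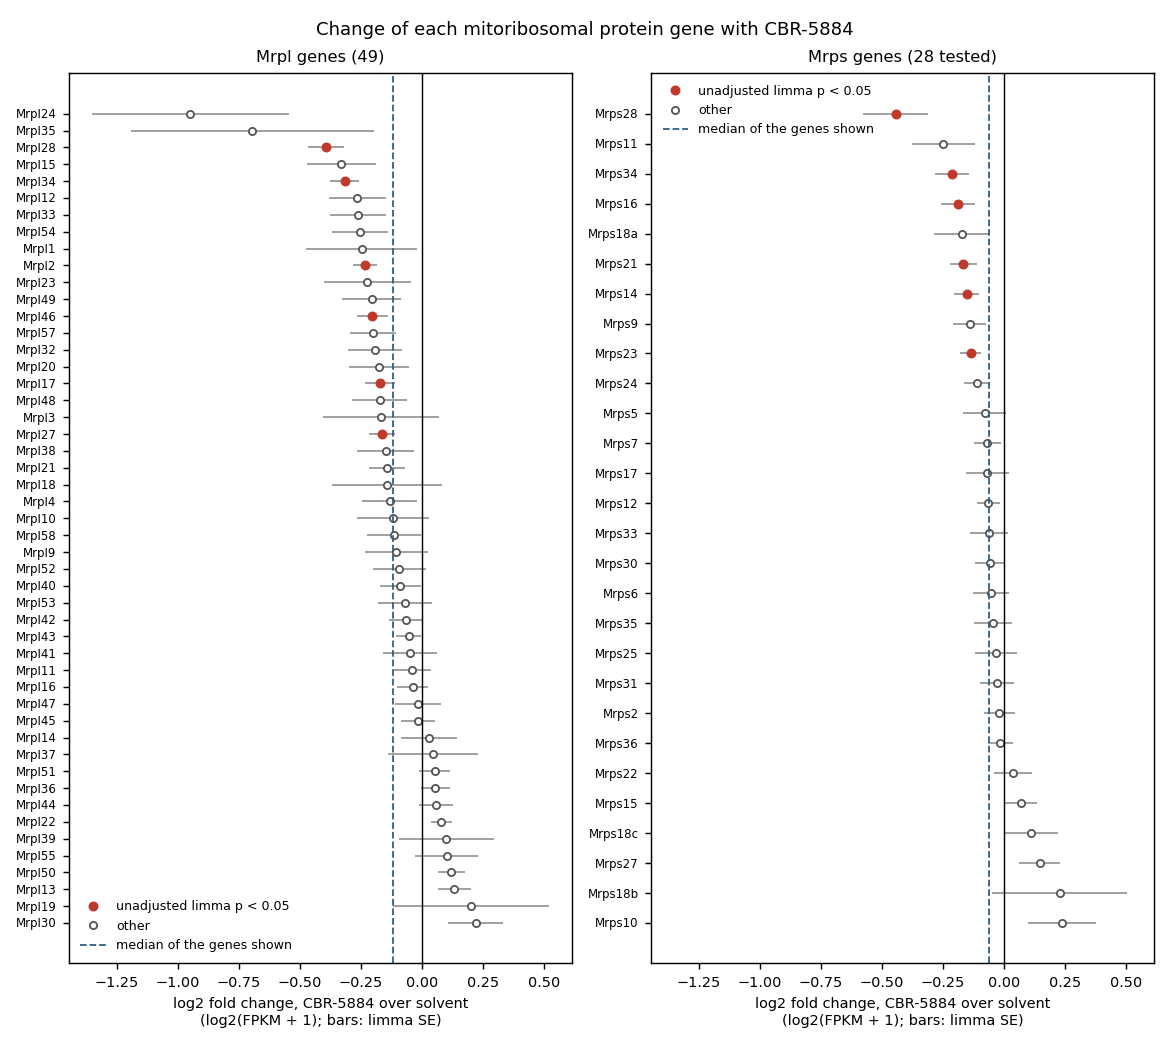
Log2 fold change of each tested Mrpl gene (left, 49) and Mrps gene (right, 28), CBR-5884 over solvent on the log2(FPKM + 1) scale, with limma standard errors as bars and the list median as a dashed line. Filled points have an unadjusted limma p below 0.05; all 12 lie left of 0, and the medians lie at -0.12 and -0.06.

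The ratio of coverage to FPKM implies 28314200 to 30698800 fragments per library, and every member above 0 rested on 255 to 1543 implied fragments in each library, with a median of 639. The 8 macrophage markers examined were all present, with summed levels of 9743 to 13078 FPKM under CBR-5884 against 11011 to 13092 in solvent, most of it Lyz2. Cd68 and Itgam were higher in every CBR-5884 library than in both solvent libraries, Fcgr1 and Cd14 were lower, and the others overlapped. Of all genes tested, 16.6% were higher and 24.9% lower in this way. The 4 monocyte markers summed to 3.98 to 4.63 FPKM under CBR-5884 against 8.41 to 9.53 in solvent, a difference carried by Ccr2, and their part in the values of the members was not tested. Summed levels of the 5 fibroblast markers were 10.8 to 17.1 and 17.9 to 18.9 FPKM, and their part was not tested either. Of the 6 neutrophil markers Ly6g was at 0 throughout, and their sum ran from 10.3 to 12.7 FPKM under CBR-5884 and from 9.58 to 19.97 in solvent, where S100a9 reached 9.49 in replicate 3. Sums of the 5 dendritic cell markers were 0.576 to 1.27 and 1.28 to 2.34 FPKM, and those of the 3 endothelial markers 2.23 to 2.95 and 2.85 to 2.99. The 5 T and NK cell markers summed to 0.099 to 0.269 and 0.213 to 0.282 FPKM, with Cd3d, Cd3e and Ncr1 at 0 and Cd4 above 0 in every library. B cell markers and mast cell markers, 3 of each, summed to at most 0.116 and 0.426 FPKM, and the globin genes Hbb-bs and Hba-a1 were listed at 0 in all 5 libraries. The part of these markers in the values of the members was not tested. In bulk RNA, fewer cells of a type and less RNA per cell cannot be told apart.

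The levels of the members spanned 27.99-fold among those above 0, although most of the proteins enter the ribosome in a single copy. Mrps21, a small subunit protein with a bacterial counterpart, had the highest mean level, and Mrps35, specific to mitochondria, the lowest. Mrps21 was at 86.1, 84.1 and 87.3 FPKM under CBR-5884 against 92.1 and 100.9 in solvent. Mrps35 was at 3.10, 3.30 and 3.09 FPKM and at 3.16 and 3.43. The median over members was 19.2 FPKM, with 7 members above 50 FPKM, 52 between 10 and 50 and 18 between 3 and 10. Medians of the subunits were close, 19.2 FPKM for the Mrpl and 19.4 for the Mrps genes.

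Below Mrps21 the order was led by large subunit genes. Mrpl33, a small protein with a bacterial counterpart, was at 57.9, 63.3 and 63.3 FPKM under CBR-5884 against 82.9 and 65.8 in solvent. Mrpl42, specific to mitochondria, was at 62.5, 66.7 and 61.1 FPKM and at 63.3 and 69.5. The ranges of Mrpl33 and Mrpl42 overlap, so their order does not stand out from the spread between libraries. Mrpl30, next in order, was at 53.4, 52.3 and 62.2 FPKM under CBR-5884 against 51.5 and 44.3 in solvent. The other Mrps genes of the upper range, Mrps15 and Mrps16, had means of 41.0 and 39.7 FPKM over the 5 libraries. At the lower end of the large subunit Mrpl47, the counterpart of a bacterial protein at the exit of the peptide tunnel, Mrpl57 and Mrpl19 had means of 4.82, 4.88 and 5.22 FPKM. Mrps5 had a mean of 4.07 FPKM and lay between Mrps35 and these. Mrps26 (chromosome 2, 130563742 to 130568695, GRCm38) was listed at 0 in all 5 libraries and was not tested. Cufflinks can list 0 where its estimate failed, so the value does not show that the gene was silent.

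**Figure D2:**
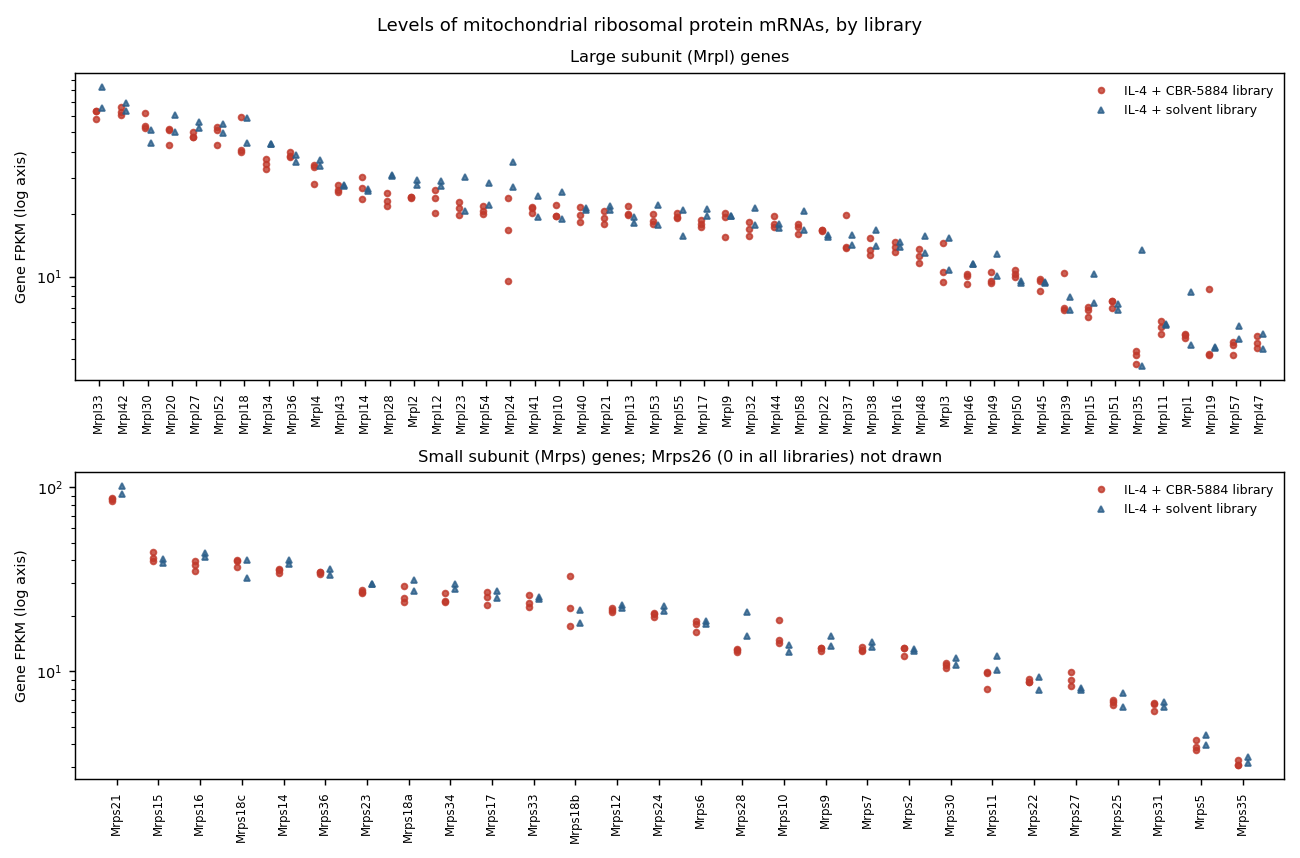
FPKM of each member in each library on a log axis, ordered by mean level, for the large subunit (top) and the small subunit (bottom); circles are the 3 CBR-5884 libraries and triangles the 2 solvent libraries. Levels run from Mrps21 near 90.1 to Mrps35 near 3.22 FPKM, and for most genes circles and triangles overlap or nearly touch.

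Summed over the large subunit, the mRNAs held 1039, 1087 and 1083 FPKM with CBR-5884 and 1190.1 and 1155 with solvent. The CBR-5884 mean of this Mrpl sum differed from the solvent mean by -8.78%, and the groups did not overlap. Mrps genes summed to 588, 617 and 626 FPKM under CBR-5884 against 634 and 655 in solvent, a difference of -5.29% between means, again without overlap. After rescaling to equal summed FPKM the differences were -5.94% for the Mrpl and -2.33% for the Mrps genes. In that scale the highest CBR-5884 library exceeded the lower solvent library for the Mrps genes (632 against 625 FPKM) and not for the Mrpl genes (1101 against 1130). The ratio of the Mrpl to the Mrps sum was 1.77, 1.76 and 1.73 with CBR-5884 and 1.88 and 1.76 with solvent, so its ranges overlapped between groups.

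Among large subunit genes, Mrpl34 and Mrpl28 had the smallest p. Mrpl34 encodes the mitochondrial counterpart of a small bacterial large-subunit protein (chromosome 8, 71464959 to 71465747). It was at 33.4, 35.1 and 37.1 FPKM under CBR-5884 against 44.0 and 44.1 in solvent, and the groups did not overlap. This gave Mrpl34 a log2 fold change of -0.32 (SE 0.06, limma adjusted p = 0.132). Mrpl28, which also has a bacterial counterpart (chromosome 17, 26123500 to 26126613), was at 21.9, 25.4 and 23.2 FPKM and at 31.2 and 30.9, and its groups were likewise apart. For Mrpl28 the log2 fold change came to -0.39 (SE 0.07, limma adjusted p = 0.132). Both genes were quantified from reference transcripts alone in every library and were lower with CBR-5884 under all 18 alternative fits, with adjusted p from 0.118 to 0.331 for each.

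Mrpl2, the counterpart of a core bacterial protein near the peptidyl transferase centre, was at 24.2, 24.3 and 24.1 FPKM under CBR-5884 against 29.5 and 27.6 in solvent. These groups did not overlap, and the log2 fold change came to -0.23 (SE 0.05, limma adjusted p = 0.14). In CBR-5884 replicate 3, 15.0 FPKM of Mrpl2 were assembled, and with reference transcripts only its log2 fold change was -0.67. Mrpl46, specific to mitochondria, was at 9.23, 10.3 and 10.1 FPKM and at 11.5 in both solvent libraries (log2 fold change -0.20, limma adjusted p = 0.212). Exons of Mrpl46 and Mrps11 overlap by 173 nt on opposite strands, and since no source used here gives the strand setting, reads in that stretch cannot be given to either with certainty. Mrps11 was at 7.95, 9.94 and 9.77 FPKM under CBR-5884 against 10.1 and 12.1 in solvent (log2 fold change -0.25, limma adjusted p = 0.368), so both partners lay lower. Mrpl27 was at 47.6, 47.3 and 50.1 FPKM and at 52.5 and 55.9 (log2 fold change -0.16, limma adjusted p = 0.225). Mrpl17, named after its values were seen, completed the 6 with 18.8, 17.5 and 17.9 FPKM against 21.3 and 19.7.

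Of the 6 small subunit genes with an unadjusted p below 0.05, 5 had log2 fold changes within 0.25 of 0, and Mrps28 lay beyond that. Mrps23, specific to mitochondria, was at 26.7, 27.0 and 27.6 FPKM under CBR-5884 against 29.9 in both solvent libraries (log2 fold change -0.14, SE 0.04, limma adjusted p = 0.21). Mrps34 was at 23.6, 24.1 and 26.4 FPKM and at 29.7 and 27.9 (log2 fold change -0.21, limma adjusted p = 0.223). Its exons overlap Nme3 on the same strand and Mapk8ip3 on the opposite strand, so its level is uncertain. Mrps14, which has a bacterial counterpart, was at 35.3, 36.1 and 34.2 FPKM and at 38.1 and 40.4 (log2 fold change -0.15, limma adjusted p = 0.23). For Mrps21 the log2 fold change was -0.17 (limma adjusted p = 0.23), and for Mrps16 it was -0.19 (limma adjusted p = 0.249). Mrps16 was at 35.0, 37.8 and 39.7 FPKM under CBR-5884 against 42.0 and 43.8 in solvent, of which 8.01 in solvent replicate 3 were assembled. With reference transcripts only, that library was at 34.0 FPKM, below all 3 CBR-5884 libraries, and the log2 fold change of Mrps16 was -0.04. Mrps28 was at 13.0, 12.7 and 13.2 FPKM under CBR-5884 against 20.9 and 15.5 in solvent, a log2 fold change of -0.44 (limma adjusted p = 0.197). The solvent replicate 3 value of Mrps28 includes 9.53 FPKM of an assembled transcript that no other library had, and with reference transcripts only the log2 fold change was -0.03.

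**Figure D3:**
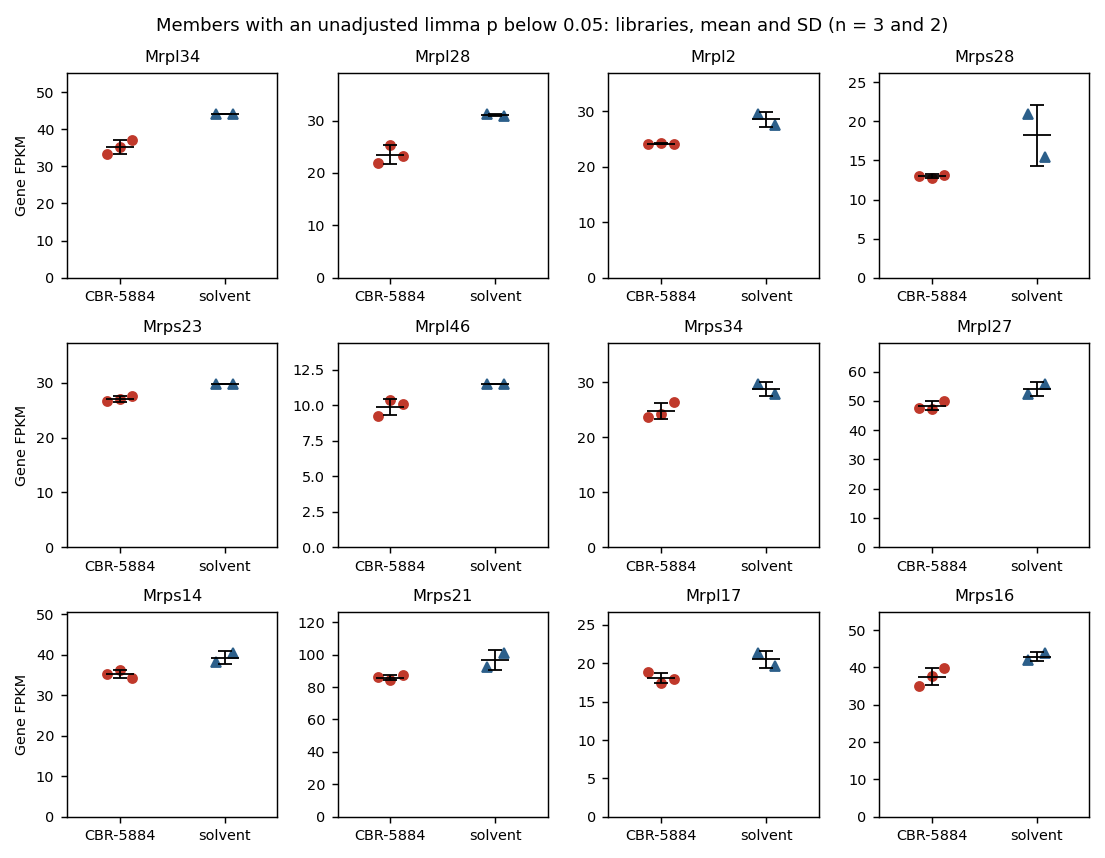
FPKM of the 12 members with an unadjusted limma p below 0.05, by library, with the group mean and SD (n = 3 CBR-5884 libraries and n = 2 solvent libraries); axes start at 0. In each panel all CBR-5884 libraries lie below both solvent libraries, by small amounts relative to the level.

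Members with higher values under CBR-5884 were fewer. Mrpl30 had a log2 fold change of 0.22 (limma adjusted p = 0.357) and did not overlap between groups. Mrpl13, the counterpart of an early-binding bacterial protein, was at 20.1, 22.1 and 19.9 FPKM under CBR-5884 against 18.1 and 19.4 in solvent (log2 fold change 0.13, limma adjusted p = 0.365). Mrps27, a pentatricopeptide repeat protein of the small subunit, was at 8.26, 9.87 and 8.91 FPKM and at 8.10 and 7.95 (log2 fold change 0.15, limma adjusted p = 0.401). All 3 kept positive log2 fold changes in the 18 alternative fits. Mrps10 was at 14.2, 14.8 and 19.0 FPKM and at 13.9 and 12.7 (log2 fold change 0.24, limma adjusted p = 0.414). With reference transcripts only, Mrps10 was at 12.2, 13.5 and 11.6 FPKM under CBR-5884 against 5.95 and 4.38 in solvent. In the solvent libraries more of its signal had been given to assembled transcripts, 7.96 and 8.36 FPKM, beside 2.01, 1.29 and 7.33 with CBR-5884. The log2 fold change of Mrps10 over reference transcripts was 1.14 (limma adjusted p = 0.13).

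Genes picked for their role or place in the ribosome showed no difference past the test. Mrpl12, whose protein also binds the mitochondrial RNA polymerase, was at 20.3, 26.2 and 23.9 FPKM under CBR-5884 against 28.9 and 27.5 in solvent (log2 fold change -0.26, SE 0.12, limma adjusted p = 0.31). Mrpl41 was at 20.4, 21.7 and 21.4 FPKM and at 19.5 and 24.6, ranges that overlap. Mrpl58, a peptidyl-tRNA hydrolase that frees stalled mitoribosomes and is also a structural subunit, was at 16.1, 17.4 and 18.1 FPKM and at 20.8 and 16.8. Mrps12, the counterpart of the bacterial protein at which streptomycin resistance arises, was at 20.997, 21.9 and 21.5 FPKM and at 22.1 and 22.8 (log2 fold change -0.06, SE 0.05, limma adjusted p = 0.496). Sars2, the mitochondrial seryl-tRNA synthetase whose start lies 172 nt from that of Mrps12 on the other strand, was at 3.75, 4.34 and 5.21 FPKM under CBR-5884 against 7.03 and 4.99 in solvent. The ranges of Sars2 overlapped and those of Mrps12 lay just apart.

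The genes Mrps18a, Mrps18b and Mrps18c encode related proteins that occupy different places: MRPS18A sits in the large subunit despite its symbol, and the others in the small. Mrps18a was at 23.8, 24.8 and 29.0 FPKM under CBR-5884 against 27.2 and 31.3 in solvent. Mrps18b was at 17.7, 32.8 and 22.0 FPKM and at 21.6 and 18.2. Mrps18c, the highest of the family on the mean, was at 36.9, 40.1 and 39.5 FPKM and at 32.0 and 40.1. None of the 3 separated the groups, and the high Mrps18b value of CBR-5884 replicate 4 includes 16.8 FPKM of assembled transcripts, without which it was at 15.95. Mrps30, also a large subunit protein by structure, was at 10.4, 11.1 and 10.8 FPKM and at 10.7 and 11.8. Counting Mrps18a and Mrps30 with the large subunit gave medians of -0.12 and -0.06, as before.

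Split by descent, the 46 members listed with a bacterial counterpart centred on a log2 fold change of -0.14 (median), and 36 were below 0. That list was fixed by symbol, and descent was not checked for each gene. The other 31 tested members, counted as specific to mitochondria, had a median of -0.06, with 23 below 0. Of the 12 members lower at an unadjusted p below 0.05, 8 were on the list with a bacterial counterpart and 4 were not. The difference between these groups was not tested. By position, 18 members lie head to head with another protein-coding gene, with starts within 1000 nt that do not overlap. These had a median of -0.07 (11 below 0), and the other 59 tested members had one of -0.10 (48 below 0). Pairs that overlap at their starts, such as Mrpl46 and Mrps11, count among the others.

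Values of single members depended on which transcripts were summed. Cufflinks reported transcripts of its own assembly for 34 of the 78 members, and which transcript carried the reads changed from library to library. The 43 tested members without any centred on a log2 fold change of -0.08 (median), had 34 values below 0 and spanned -0.39 to 0.15. With reference transcripts only, 7 members were listed at 0 in some library and 17 changed sign. Mrpl33 is an example: its reference transcripts were at 57.9, 63.3 and 63.3 FPKM with CBR-5884 but at 0 and 65.8 with solvent, because in solvent replicate 3 all 82.9 FPKM stood on an assembled transcript. Its log2 fold change was -0.26 by the sum of all transcripts and 2.93 by reference transcripts. Mrpl27, Mrpl23 and Mrpl15 moved in the same way, from -0.16, -0.22 and -0.33 to 2.71, 2.26 and 1.42. Mrpl10 and Mrps7, named after their values were seen, moved the other way, from -0.12 and -0.07 to -1.46 and -1.33.

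Mrpl24 had the most negative log2 fold change of the family, -0.95 (SE 0.40, limma adjusted p = 0.297). It was at 23.9, 9.46 and 16.9 FPKM under CBR-5884 against 35.8 and 27.2 in solvent, of which 11.7 FPKM in CBR-5884 replicate 3 and 28.5 and 8.59 FPKM in solvent replicates 3 and 5 were assembled. Leaving out any 1 library gave -1.24 to -0.61. By reference transcripts it was at 12.3, 9.46 and 16.9 FPKM and at 7.29 and 18.6, ranges that overlap. In other members a single library stood apart. Mrpl35 was at 3.77, 4.17 and 4.33 FPKM and at 13.4 and 3.69, and 10.4 FPKM of the high value were assembled. Its log2 fold change of -0.69 became 0.12 without solvent replicate 3. Mrpl19 was at 4.23, 8.66 and 4.14 FPKM under CBR-5884 against 4.56 and 4.52 in solvent, with 5.14 FPKM assembled in CBR-5884 replicate 4. Mrpl1 was at 5.26, 5.01 and 5.19 FPKM and at 4.67 and 8.38, with 4.73 FPKM assembled in solvent replicate 5. In each of Mrpl35, Mrpl19 and Mrpl1 the remaining 4 libraries lay close together.

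**Figure D4:**
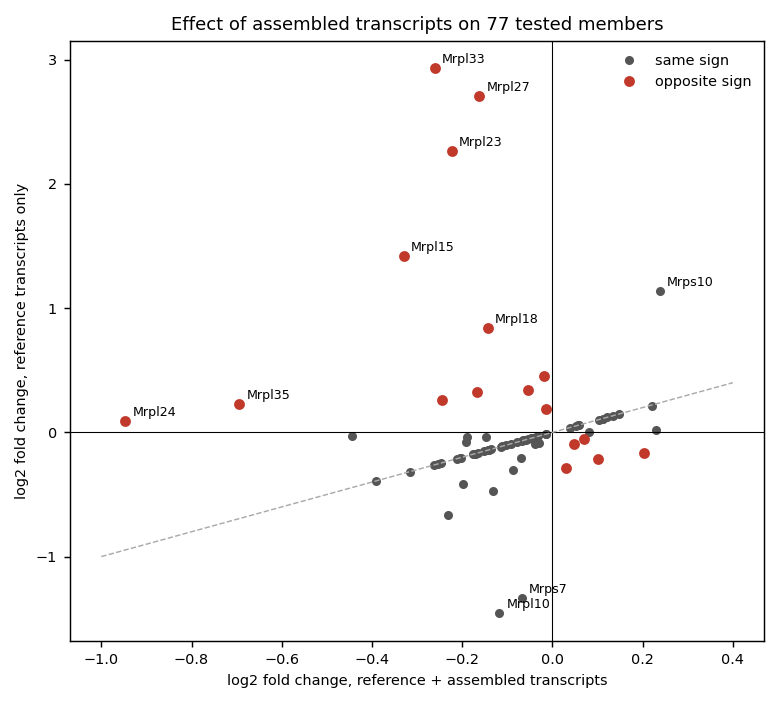
Log2 fold change of the 77 tested members from the sum of reference and assembled transcripts (horizontal) against reference transcripts only (vertical), with the line of equality dashed. Red points, 17 members, have opposite signs; Mrpl33, Mrpl27, Mrpl23 and Mrpl15 lie highest on the vertical axis, at 2.93 to 1.42.

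Promoter windows of the members, 250 bases before to 50 after the RefSeq start (GRCm38.p6), were found for 69 of 78 genes. They were searched on both strands for CCGGAAG (a site of ETS factors such as GABPA), AAGATGGC (the core of the YY1 site), the core of the NRF1 site and TGACGTCA (the cyclic AMP response element). GABPA, YY1 and NRF1 are known regulators of nuclear genes for mitochondria. CCGGAAG was in the window of 26 members (37.7%), beside 22.8% of the 7945 tested protein-coding genes and 9.93% of all 27025 genes with a window. AAGATGGC was in 12 (17.4%, against 5.97% and 3.19%), the NRF1 core in 3 (4.35%, against 2.69% and 1.07%) and TGACGTCA in 2 (2.90%, against 3.79% and 2.03%). CCGGAAG was found in 15 of 43 Mrpl and 11 of 26 Mrps windows, and 3 members (Mrps12, Mrps18a and Mrps27) had both it and AAGATGGC.

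The sites below are shown because they belong to 6 of the 12 members with an unadjusted p below 0.05, all 6 through CCGGAAG. Capitals mark the motif, or its reverse complement CTTCCGG, on the gene's strand.
Mrpl34 (chr8:71464878-71464907, plus strand): aactacagctcCCGGAAGgccccgcggcaa
Mrpl27 (chr11:94653725-94653754, plus strand): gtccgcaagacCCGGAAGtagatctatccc
Mrpl17 (chr7:105811306-105811335, minus strand): gcatgctccgcCCGGAAGgcgcctcctcca
Mrps16 (chr14:20393546-20393575, minus strand): ttgggggcgctCTTCCGGgcttcaggctct
Mrps21 (chr3:95871478-95871507, minus strand): cgtagcttccgCTTCCGGtccgcagagacc
Mrps23 (chr11:88204392-88204421, plus strand): tgccgcttccgCTTCCGGtaacagcccgag
The motif begins 37 bases before the start in Mrpl34 and 55 before it in Mrpl27, and 18 and 15 bases after it in Mrps21 and Mrps23. Members with CCGGAAG had a median log2 fold change of -0.14 (19 of 25 tested below 0) and members with a window but without it one of -0.07 (33 of 43 below 0). A match of letters is not a site of binding, and no binding was measured.

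For comparison, AAGATGGC is shown in Mrps18a, which also holds CCGGAAG, and the members with the NRF1 core are Mrpl9, Mrpl32 and Mrpl39. Capitals mark the motif again.
Mrps18a (chr17:46111004-46111033, plus strand): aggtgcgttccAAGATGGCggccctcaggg
Mrpl9 (chr3:94443298-94443327, plus strand): aggcgcagctGCGCATGCGCggggtccttc
Mrpl32 (chr13:14613105-14613134, minus strand): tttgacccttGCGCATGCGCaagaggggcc
Mrpl39 (chr16:84735350-84735379, minus strand): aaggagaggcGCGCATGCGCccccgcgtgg
None of these 4 genes passed the test, and their log2 fold changes were -0.17, -0.10, -0.19 and 0.10 in the order shown.

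Mitoribosomal proteins with other symbols had a median log2 fold change of -0.23. Gadd45gip1, a large subunit protein, was at 4.14, 4.46 and 4.45 FPKM under CBR-5884 against 5.11 and 5.42 in solvent (log2 fold change -0.23, limma adjusted p = 0.195). All 5 genes of this list (Dap3, Ptcd3, Chchd1, Aurkaip1 and Gadd45gip1) had log2 fold changes below 0, and 0 passed the test. Dap3, which encodes a GTP-binding small subunit protein, was listed at 0 in CBR-5884 replicate 4 and was at 13.2 and 12.7 FPKM in the other CBR-5884 libraries and at 18.7 and 13.0 with solvent. The resulting Dap3 log2 fold change of -1.52 (SE 1.34, limma adjusted p = 0.575) lies outside the range of the Mrpl and Mrps genes and includes that 0.

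Factors that work with the mitoribosome gave 0 calls as well. Of 15 tested translation factors, 9 had log2 fold changes below 0 and the median was -0.07. Tufm, the mitochondrial elongation factor that brings aminoacyl-tRNA to the ribosome, had the smallest p of these: 15.4, 18.0 and 17.1 FPKM with CBR-5884 and 21.7 and 20.955 with solvent (log2 fold change -0.33, SE 0.08, limma adjusted p = 0.155). Of 23 tested genes of ribosome assembly and rRNA modification, 16 were below 0, with a median of -0.13. At an unadjusted p below 0.05, 4 of these 23 were lower, beside 12.4% of all genes tested. Rcc1l, an assembly factor, had the smallest p of that list, at 4.27, 4.12 and 4.02 FPKM under CBR-5884 against 5.24 and 4.90 in solvent (limma adjusted p = 0.179). Among 17 tested mitochondrial tRNA synthetases 12 were below 0 (median -0.08), and the smallest p was that of Iars2, which charges isoleucine tRNA, with a log2 fold change of 0.15 (limma adjusted p = 0.28).

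Genes of mitochondrial DNA transcription, replication and RNA processing were divided, with 8 of 17 below 0 and a median of 0.02. Lonp1, the protease that degrades TFAM among other matrix proteins, was at 13.6, 14.1 and 14.5 FPKM under CBR-5884 against 17.3 and 15.6 in solvent (limma adjusted p = 0.217). At an unadjusted p below 0.05, 2 of these 17 genes were lower (Lonp1 and Polg) and 2 higher, beside 12.4% and 7.24% of all genes tested. The higher ones, named with Polg after their values were seen, encode subunits of mitochondrial RNase P: Trmt10c had a log2 fold change of 0.19 (limma adjusted p = 0.228) and Hsd17b10 one of 0.19 (limma adjusted p = 0.228). Without overlap between groups, 2 genes of the list were lower and 4 higher, beside 24.9% and 16.6% of all genes tested. Of 8 tested regulators of mitochondrial biogenesis, 6 were below 0 (median -0.10). Esrra, a nuclear receptor that acts with PGC-1 coactivators, was at 27.8, 28.5 and 27.2 FPKM and at 33.9 and 54.8 (limma adjusted p = 0.232), and its solvent libraries differed widely from each other.

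Cytosolic ribosomal protein genes and complex I subunit genes, the nearest groups by function, are given for scale. The 76 tested cytosolic ribosomal protein genes centred on a log2 fold change of -0.17 (median), with 72 below 0, 45 lower at an unadjusted p below 0.05 and 0 called. The 36 tested complex I genes had a median of -0.14, with 30 below 0, 14 lower at an unadjusted p below 0.05 and 0 called. Of all genes tested, 12.4% were lower at that unadjusted p. Summed levels of the cytosolic and the complex I genes differed by -12.4% and -13.1% between group means, beside -8.78% for the Mrpl and -5.29% for the Mrps genes. All of these sums are as deposited, without rescaling. The complex I sum includes Ndufa13, which stood apart in 1 library, at 281 FPKM in solvent replicate 3 and 77.2 in solvent replicate 5. With CBR-5884 Ndufa13 was at 68.9, 83.7 and 70.1 FPKM. A difference between these lists was not tested. With solvent replicate 3 left out, the Mrpl median was -0.06 and the Mrps median -0.08, so the order of the subunits depended on that library.

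**Figure D5:**
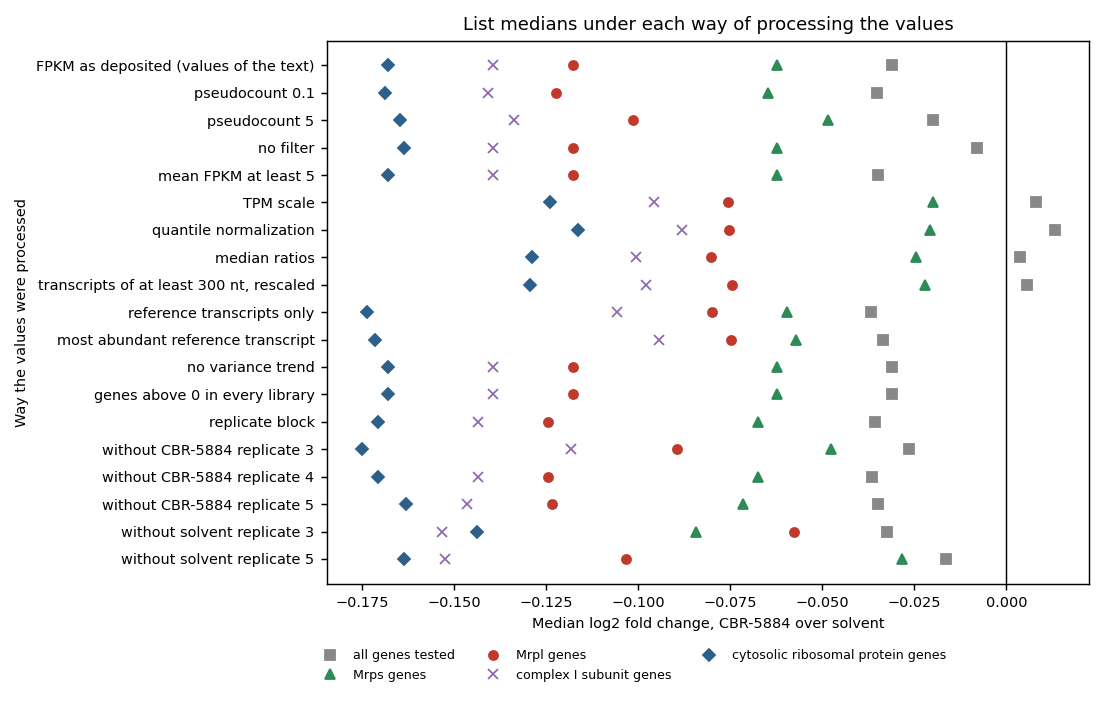
Median log2 fold change, CBR-5884 over solvent, of Mrpl genes, Mrps genes, cytosolic ribosomal protein genes, complex I genes and all genes tested, for the values of the text and each alternative way of processing (rows). The Mrpl and Mrps medians lie below 0 and below the median of all genes in every row, and the order of Mrpl and Mrps turns without solvent replicate 3.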

How the data were processed

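RNA of 5 libraries was sequenced as single reads of 75 nt from a directional kit, per the labels' protocols. The authors deposited FPKM values per transcript, which Cufflinks estimated separately per library; Bowtie2 and TopHat2 on mm10 (GRCm38) preceded it, per the submitters' processing notes. No source used here gives tool versions, annotation release, strand setting or a normalization between libraries. Gene FPKM was summed over reference transcripts, named through GENCODE M21 (GRCm38), and assembled transcripts of at least 200 nt with at least 50% of their bases in exons of 1 gene on their strand. Transcripts outside these rules held 64.0% to 70.3% of summed FPKM but 8.55% to 10.2% of covered bases. Genes with a mean of at least 1 FPKM were fitted with limma 3.58.1 (R 4.3.3; eBayes with trend, two-sided, log2(FPKM + 1), Benjamini-Hochberg over all 10770 genes), a script tested on simulated data. Depth was inferred from coverage divided by FPKM. Promoter sequences are from RefSeq (GRCm38.p6), coordinates 1-based.

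Members, lists and tests were chosen with earlier results of these data known. Named members were those with the 5 smallest p, the 3 most extreme fold changes and levels at either end per subunit, those listed at 0, those with a chosen role, and those whose sign differed with reference transcripts only. Of the genes of the other lists, 2 were not matched by symbol and are not analysed here. Trmt61b, of the assembly list, was matched but is not among the genes analysed either. Alternatives covered pseudocount, filter, scaling, transcripts summed, variance trend, replicate block and each library left out.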

Additional observations from a re-analysis of the deposited data

How the results depend on the processing

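No member was called in any of the 18 alternative fits. Among the fits that kept both solvent libraries, the smallest limma adjusted p of a member was 0.118 (Mrpl28, with a mean FPKM of at least 5). Of all genes, 24 were called as reported, 3 with the replicate block and 1 among genes above 0 in every library. The Mrpl median was -0.076 with the sum of FPKM rescaled, -0.075 with quantile normalization, -0.080 with median ratios, -0.074 with transcripts of at least 300 nt, -0.080 with reference transcripts only and -0.075 with the most abundant one. The Mrps median was -0.020, -0.021, -0.025 and -0.022 in the first 4 of these. At an unadjusted p below 0.05, lower Mrpl genes numbered 3 with rescaled FPKM, 3 with transcripts of at least 300 nt, 3 with reference transcripts and 3 with the most abundant one. Higher Mrpl genes numbered 2, 3 and 2 under the 3 scalings and 1 with the most abundant transcript. Lower Mrps genes numbered 1, 2 and 1 under the scalings, 1 with transcripts of at least 300 nt, 3 with the most abundant transcript and 3 without the variance trend, and 1 Mrps gene was higher with reference transcripts. Among members without assembled transcripts, a set chosen after seeing the data, 19 Mrpl genes were below 0 because fewer genes were counted. Summed gene FPKM was 480311, 481031 and 482077 with CBR-5884 and 494404 and 497919 with solvent. Rescaling to these sums moved the median of all genes from -0.031 to 0.0080, and the Mrpl and Mrps medians moved up with it. The cause of the other shifts was not tested. Of all genes at that p, 63.1% were lower as reported, 45.5% with rescaled FPKM, 44.8% with quantile normalization (945 lower, 1163 higher), 47.9% with median ratios (1003 and 1091) and 47.2% with transcripts of at least 300 nt (1006 and 1124).

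Leaving out 1 library at a time gave Mrpl medians of -0.12 to -0.058 and Mrps medians of -0.084 to -0.028. Without 1 CBR-5884 library, 4 to 6 Mrpl and 0 to 2 Mrps genes were lower at an unadjusted p below 0.05, and 0 were higher. Fits without a solvent library rest on 1 library of that group, so beyond the absence of a called member only their effect sizes are given.

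The labels do not say that replicate numbers pair libraries, and deviations of same-numbered libraries correlated at 0.062 (number 3) and 0.067 (number 5). With the replicate block, 1 Mrps gene was lower at an unadjusted p below 0.05. In that fit 4 members turned to negative values: Mrpl19 (-0.0959), Mrpl37 (-0.12), Mrpl39 (-0.0716) and Mrps18b (-0.00532). CBR-5884 replicate 4 has no solvent library of the same number, so it adds nothing to a difference within replicate numbers. These members had the same values without CBR-5884 replicate 4, as did the Mrpl median (-0.12) and the Mrps median (-0.068). For direction, the block is therefore not a separate alternative to leaving out that library.

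With reference transcripts only, log2 fold changes turned to 0.26 (Mrpl1), -0.29 (Mrpl14), 1.42 (Mrpl15), 0.84 (Mrpl18), -0.16 (Mrpl19), 2.26 (Mrpl23), 0.0878 (Mrpl24), 2.71 (Mrpl27), 0.33 (Mrpl3), 2.93 (Mrpl33), 0.23 (Mrpl35), -0.0942 (Mrpl37), -0.22 (Mrpl39), -0.0559 (Mrps15), 0.45 (Mrps2), 0.19 (Mrps36) and 0.34 (Mrps6). With the most abundant reference transcript, looking at the named members only, they turned to 0.26 (Mrpl1), -0.29 (Mrpl14), 1.14 (Mrpl15), 0.84 (Mrpl18), -0.16 (Mrpl19), 2.36 (Mrpl23), 0.23 (Mrpl24), 2.71 (Mrpl27), 2.93 (Mrpl33), 0.23 (Mrpl35), -0.0942 (Mrpl37), -0.22 (Mrpl39), -0.0559 (Mrps15), 0.45 (Mrps2), 0.19 (Mrps36) and 0.34 (Mrps6). With rescaled FPKM the turned values of named members were 0.0217 (Mrpl47), 0.0229 (Mrps2) and 0.0284 (Mrps36). Those of other members were 0.0041 (Mrpl16), 0.026 (Mrpl45), 0.0068 (Mrps25) and 0.0092 (Mrps31). With quantile normalization the turned values were 0.0319 (Mrpl47), 0.0201 (Mrps2), 0.0223 (Mrps36) and 0.0014 (Mrps6) for named members. For other members they were 0.0038 (Mrpl11), 0.0014 (Mrpl16), 0.035 (Mrpl45), 0.016 (Mrps25) and 0.018 (Mrps31). With median ratios the turned values were 0.0176 (Mrpl47), 0.0182 (Mrps2) and 0.0236 (Mrps36) for named members. For other members they were 0.022 (Mrpl45), 0.0025 (Mrps25) and 0.0049 (Mrps31). With transcripts of at least 300 nt the turned values of named members were -0.0549 (Mrpl37), 0.0199 (Mrpl47), 0.0208 (Mrps2) and 0.0262 (Mrps36), and other members turned as well. Named members whose sign turned without 1 library ranged, over the libraries left out, as follows: Mrpl1 (-0.61 to 0.12), Mrpl10 (-0.33 to 0.090), Mrpl14 (-0.0579 to 0.12), Mrpl18 (-0.34 to 0.0554), Mrpl19 (-0.0959 to 0.36), Mrpl23 (-0.49 to 0.0443), Mrpl3 (-0.41 to 0.0742), Mrpl35 (-1.50 to 0.12), Mrpl37 (-0.12 to 0.13), Mrpl39 (-0.0716 to 0.19), Mrpl41 (-0.21 to 0.11), Mrpl42 (-0.13 to 6.0e-05), Mrpl47 (-0.11 to 0.0813), Mrpl58 (-0.26 to 0.0314), Mrps18b (-0.00532 to 0.42), Mrps18c (-0.0476 to 0.27), Mrps2 (-0.0417 to 0.0268), Mrps30 (-0.12 to 0.00359), Mrps35 (-0.0899 to 0.00199), Mrps36 (-0.0695 to 0.0402) and Mrps6 (-0.0935 to 0.00127). Members that were not named, such as Mrpl55 and Mrps22, also turned without 1 library. For these turns the cause was not tested. Direction held in every alternative for 16 of 37 lower and 7 of 12 higher Mrpl genes and for 14 of 22 lower and 2 of 6 higher Mrps genes. With 2 solvent libraries and a median SE of 0.11 (Mrpl) and 0.07 (Mrps), differences of the size of the medians could not be resolved gene by gene.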

Other observations

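The mitochondrially encoded partners of these proteins could not be compared. Transcripts of 37 mitochondrial genes were listed in solvent replicate 5 and in no other library, among them 13 protein-coding genes and both ribosomal RNAs of the mitoribosome, and 12 of the 37 were above 0 FPKM. In that library mt-Rnr1, the small subunit ribosomal RNA, was at 252 FPKM and mt-Rnr2, the large one, at 743 FPKM. They are given as values of 1 library without comparison.

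Mrpl43 overlaps Twnk, the gene of the mitochondrial DNA helicase, by 507 nt on the opposite strand. Mrpl43 was at 25.8, 27.7 and 26.3 FPKM under CBR-5884 against 27.7 and 27.5 in solvent, and Twnk was at 2.24, 1.98 and 2.03 FPKM against 2.27 and 1.82. Members lie on 17 chromosomes, with 11 of them on chromosome 11.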
